A study of Mus musculus with 20 samples.

Results

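Mitochondrially encoded transcripts were followed through cell bodies and axons of mouse motoneurons after knockdown of Tdp-43, the RNA-binding protein encoded by Tardbp. The set holds every gene that the deposited expression tables place on chromosome MT, the mitochondrial genome, and comprises 37 of 39174 genes: 13 mRNAs, 2 rRNAs and 22 tRNAs. Primary motoneurons from CD-1 mouse embryos, enriched with an antibody against p75, were grown in microfluidic chambers that separate axons from cell bodies and dendrites, and RNA was taken separately from the somatodendritic and the axonal side. Control motoneurons carried an empty lentiviral vector and knockdown motoneurons a lentiviral shRNA against Tdp-43, so that all groups were transduced with virus. There were 4 control and 6 knockdown libraries for each compartment, 20 in all, numbered as replicates in the sample labels. The labels name no cultures, so that the spread between libraries may be partly technical, and the p-values measure that spread only. The control libraries also belong to an earlier study. According to the methods, motoneurons of both conditions went through RNA-seq in parallel, and since no batch is given for single libraries, no value within a batch could be computed. Values are FPKM, fragments per kilobase of transcript scaled to the mapped fragments of the library. Levels of different genes are given per length, which does not make short and long genes fully comparable.

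The mitochondrial genome is transcribed from both strands into long polycistronic RNAs that cover nearly its whole length. In these precursors most rRNAs and mRNAs are flanked by tRNAs, and cutting out the tRNAs at both ends releases the mature messages and rRNAs. The 13 mRNAs encode core subunits of the respiratory chain and the ATP synthase, and the rRNAs and tRNAs serve the translation of these mRNAs inside mitochondria, which neurons carry into their axons. In the files, 14 tRNAs and 12 mRNAs lie on the plus strand, as do both rRNAs. The remaining 8 tRNAs and mt-Nd6 lie on the minus strand. The tRNA genes are 59 to 75 bases long, with a median of 68.

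The 6 tRNAs on which the results for this class turn are printed here as DNA from the GENCODE M21 transcripts of GRCm38, 5′ to 3′, with the anticodon in capitals. mt-Tf (phenylalanine) spans MT:1-68, mt-Tv (valine) MT:1025-1093, mt-Tg (glycine) MT:9391-9458 and mt-Th (histidine) MT:11546-11612 on the plus strand, and mt-Ta (alanine) spans MT:5018-5086 and mt-Ts1 (serine) MT:6870-6938 on the minus strand.
mt-Tf: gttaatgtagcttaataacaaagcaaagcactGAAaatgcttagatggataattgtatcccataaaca
mt-Tv: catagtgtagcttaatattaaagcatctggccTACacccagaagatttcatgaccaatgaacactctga
mt-Ta: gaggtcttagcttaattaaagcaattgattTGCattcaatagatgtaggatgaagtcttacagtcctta
mt-Ts1: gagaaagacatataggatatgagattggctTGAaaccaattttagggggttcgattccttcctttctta
mt-Tg: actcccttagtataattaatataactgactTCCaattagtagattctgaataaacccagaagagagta
mt-Th: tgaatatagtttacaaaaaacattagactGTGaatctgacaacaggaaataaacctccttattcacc
mt-Tf and mt-Tv flank mt-Rnr1, the small-subunit rRNA at MT:70-1024, and mt-Tv also precedes mt-Rnr2, the large-subunit rRNA at MT:1094-2675. mt-Ts1 overlaps the end of mt-Co1 on the opposite strand by 3 bases. None of the 22 tRNAs and neither rRNA matched a nuclear GENCODE transcript at an identity of at least 95% over 50 bases or more, whereas 9 of the 13 mRNAs did.

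Before the mitochondrial transcripts were compared, the labels and the cells were checked. Tardbp stood at 19.0 to 30.8 FPKM in somatodendritic control and at 0 to 8.54 in somatodendritic knockdown libraries. In axons it stood at 13.4 to 32.3 FPKM in control and at 1.21 to 13.98 in knockdown libraries, except for the library labelled axonal knockdown replicate 1, which stood at 33.2. The axonal groups overlapped without that library as well, since knockdown replicate 5, at 13.98, lay above control replicate 4, at 13.4. Of 7 motoneuron markers found in the files, Chat, Isl2 and Mnx1 were listed at 0 in every library, and the summed markers reached at most 10.6 FPKM in somatodendritic and 8.90 in axonal libraries. Between 7632 and 15453 genes were above 0 in a library. Read totals are not in the files, and the depth was taken from the 95% interval given with each value. By that measure the mRNAs of chromosome MT rested on 1687 to 20795 implied fragments per library and the rRNAs on 6950 to 123356.

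The first question was how much of each library came from the mitochondrial genome. In the somatodendritic compartment the 37 genes together held 12.2%, 13.6%, 11.9% and 11.9% of the FPKM sum in the 4 control libraries and 10.5% to 14.96% (median 11.9%) in the 6 knockdown libraries. The means were 12.4% ± 0.831 (SD, n = 4) and 12.1% ± 1.70 (SD, n = 6), and the groups overlapped. In axons the share was 12.1%, 8.92%, 13.1% and 33.0% in control libraries and 12.8%, 41.6%, 8.88%, 38.5%, 47.7% and 41.1% in knockdown libraries. Axonal libraries therefore lay at 2 levels: control replicates 1 to 3 and knockdown replicates 1 and 3 between 8.88% and 13.1%, and control replicate 4 with knockdown replicates 2, 4, 5 and 6 between 33.0% and 47.7%. Both levels hold libraries of both groups, and the axonal groups overlapped.

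**Figure D1:**
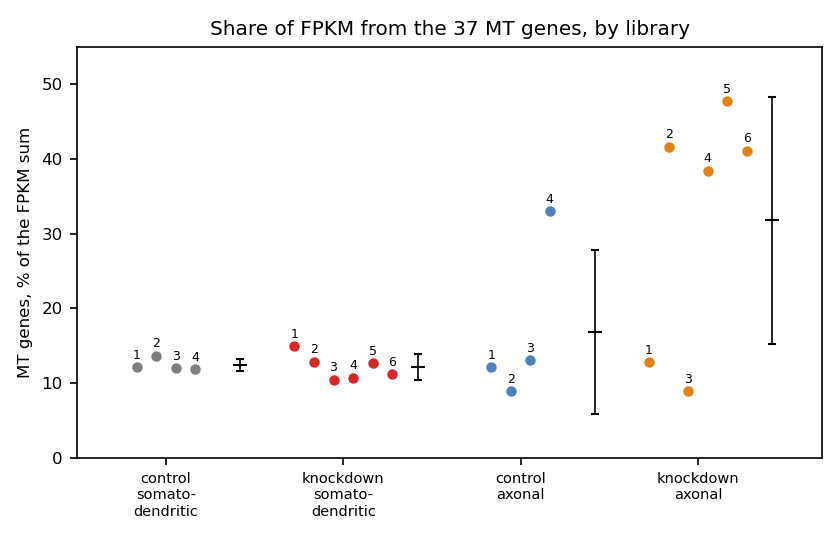
Share of the FPKM sum held by the 37 genes of chromosome MT in each library (y axis, %, from 0), by compartment and condition. Points are libraries, numbered by replicate, and the bars beside them are the mean with SD. Somatodendritic libraries sit between 10.5% and 14.96%, whereas axonal libraries fall into a low level up to 13.1% and a high level from 33.0%, each with control and knockdown libraries.

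The classes were then taken separately. The rRNAs took 9.20% ± 0.699 of the library in somatodendritic control (SD, n = 4), 9.02% ± 0.998 in somatodendritic knockdown (n = 6), 12.2% ± 8.58 in axonal control (n = 4) and 23.3% ± 12.02 in axonal knockdown libraries (n = 6). Without axonal control replicate 4, the axonal control mean was 7.97%. The mRNAs took 3.15% ± 0.225, 3.12% ± 0.719, 4.39% ± 2.33 and 8.47% ± 4.58 in the same order. Both shares overlapped between control and knockdown libraries in either compartment. Since these are bulk samples, the number of mitochondria and the RNA per mitochondrion cannot be told apart in these shares. The ratio of the rRNA sum to the mRNA sum was 2.93 ± 0.231 (SD, n = 4), 2.95 ± 0.350 (SD, n = 6), 2.64 ± 0.376 (SD, n = 4) and 2.78 ± 0.258 (SD, n = 6), and it overlapped between every pair of groups compared. The tRNAs took the smallest share of the MT sum in every group, on average 0.450% in somatodendritic control, 0.0492% in somatodendritic knockdown, 1.06% in axonal control and 0.0150% in axonal knockdown libraries. The last of these means rests on replicates 1 and 2, at 0.0689% and 0.0208%, while the other 4 axonal knockdown libraries were at 0.

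The tRNAs were the class that separated control from knockdown motoneurons. Fragments on a tRNA gene may come from a mature tRNA or from an uncut precursor, which these values cannot tell apart. Whether the libraries keep the strand is not given in the sources used here. Of the 22 tRNAs, 5, 5, 6 and 7 were above 0 in the somatodendritic control libraries and 0 to 3 (median 1) in the somatodendritic knockdown libraries. In axons 15, 9, 12 and 15 were above 0 in control libraries and 0 to 2 (median 0) in knockdown libraries. The groups did not overlap in either compartment. The depth differed as well: in the somatodendritic compartment the rRNAs rested on 33106 to 46705 implied fragments in control and on 6950 to 29243 in knockdown libraries, without overlap, and 1 implied fragment on a tRNA of median length was worth 21.7 to 35.6 FPKM in control and 33.9 to 152 FPKM in knockdown libraries. In axons the implied rRNA fragments overlapped, at 18338 to 79045 and 22537 to 123356, but they also depend on the MT share of the library. There 1 implied fragment on such a tRNA was worth 32.4 to 41.3 FPKM in control libraries. It was worth 69.7, 71.3 and 227 FPKM in knockdown replicates 2, 4 and 5, and 29.5, 30.6 and 33.5 FPKM in replicates 1, 3 and 6. The part of depth in the number of tRNAs detected was not tested. Over all libraries and tRNAs, 51 of 88 axonal control values were above 0 against 3 of 132 axonal knockdown values, and 23 of 88 somatodendritic control values against 7 of 132. In every axonal control library 6 tRNAs were detected, namely mt-Tf, mt-Tv, mt-Ta, mt-Tg, mt-Th and mt-Tp (proline). No tRNA was detected in every knockdown library of either compartment, and mt-Tr (arginine) and mt-Ts2 (serine) were listed at 0 in all 20 libraries.

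**Figure D2:**
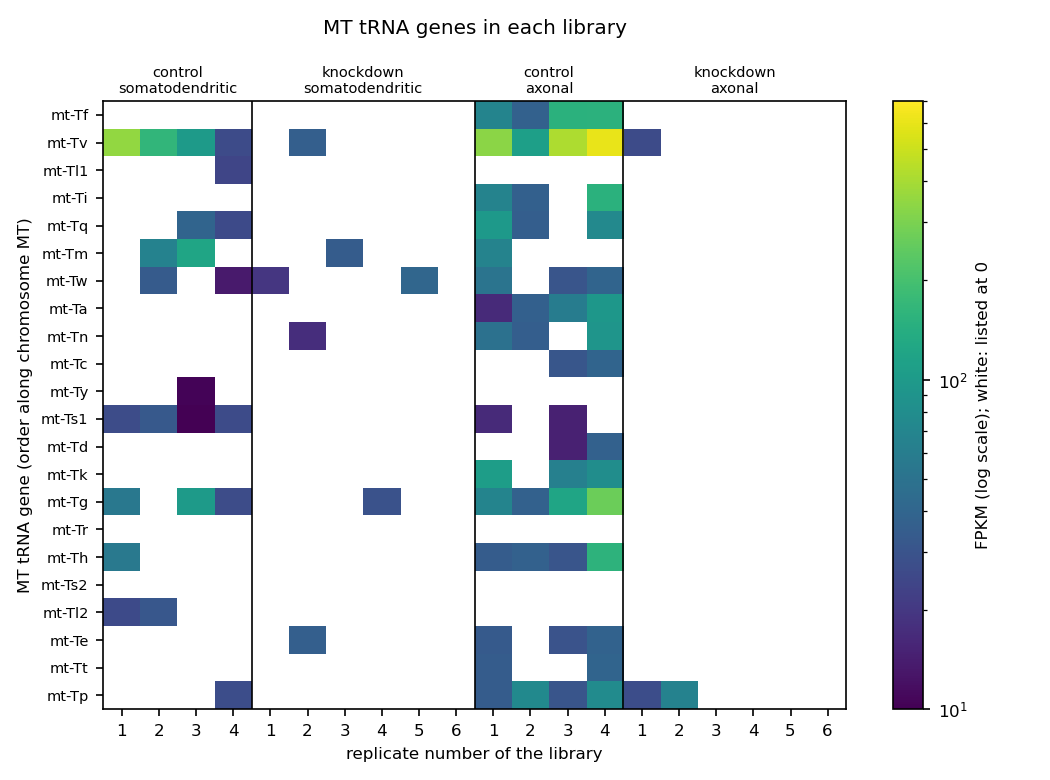
FPKM of the 22 mitochondrial tRNAs (vertical axis, by gene) in the 20 libraries (horizontal axis, by group and replicate), on a logarithmic colour scale, with values listed at 0 in white. Filled cells lie mostly in the control libraries, 51 of 88 in axonal control against 3 of 132 in axonal knockdown libraries.

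The gene-wise test used FPKM scaled by the median of ratios, set to log2(FPKM + 1) and fitted with limma. P-values were adjusted over every tested gene by the Benjamini-Hochberg method, with an adjusted p under 0.05 as the threshold. In axons 32 of the 37 genes passed the filter of a mean of at least 1 FPKM, and 5 were lower in Tdp-43 knockdown than in control libraries, all of them tRNAs. Over all genes tested 0.381% were lower in this comparison. Of the 17 tRNAs tested, 15 were listed at 0 in every axonal knockdown library and passed the filter only through the control libraries. For such tRNAs the p-value rests on the spread among the control libraries, since the knockdown values do not vary, and it is given as a description of their detection. Of the 15, mt-Tf, mt-Ta, mt-Tg and mt-Th were above 0 in all 4 control libraries.

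mt-Tf, the phenylalanine tRNA, stood at 67.8, 37.1, 151 and 154 FPKM in axonal control libraries and was listed at 0 in all 6 axonal knockdown libraries (limma, adjusted p = 9.93e-06). mt-Tg, the glycine tRNA, stood at 67.8, 37.1, 121 and 269 FPKM and was listed at 0 in all 6 knockdown libraries (adjusted p = 9.93e-06). mt-Ta, the alanine tRNA, stood at 16.7, 36.6, 59.5 and 94.8 FPKM against 0 in the 6 knockdown libraries (adjusted p = 5.76e-05). For these tRNAs every control library lay above every knockdown library. This held for mt-Th, the histidine tRNA, as well, with 34.4, 37.7, 30.6 and 156 FPKM in control libraries against 0 in the knockdown libraries (adjusted p = 5.61e-05). mt-Tv, the valine tRNA between the rRNA genes, was the most abundant tRNA of the axonal control libraries at 334, 110, 417 and 606.5 FPKM, and among knockdown libraries only replicate 1 had a value, 26.4 FPKM. Its log2 difference on the scaled log2(FPKM + 1) scale was -7.87 ± 0.81 (SE), with an adjusted p of 6.25e-05. In implied fragments per axonal control library, mt-Tv rested on 3 to 16, mt-Tg on 1 to 7, mt-Tf on 1 to 5, mt-Th on 1 to 4 and mt-Ta on 0.25 to 1.99.

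The same 5 tRNAs were called without the library labelled axonal knockdown replicate 1, in which Tardbp had been as high as in controls. Without axonal control replicate 2 or without replicate 3, 8 tRNAs were called, these 5 among them. Relative to the MT sum in place of the median of ratios, 12 tRNAs were lower in axonal knockdown libraries (mt-Tf, mt-Tv, mt-Ti, mt-Tq, mt-Tw, mt-Ta, mt-Tn, mt-Tk, mt-Tg, mt-Th, mt-Te and mt-Tp), against 0.434% of all genes lower on this scale. All of the 12 but mt-Tv and mt-Tp were at 0 in every axonal knockdown library and passed the filter only through the control libraries, so that their calls restate that detection. Without the filter on low values, or after a correction over exonic length chosen after seeing the data, 5 of the 12 were called, mt-Tf, mt-Tv, mt-Ta, mt-Tg and mt-Th. Of the 12, mt-Ti, mt-Tq, mt-Tw, mt-Tn, mt-Tk and mt-Te were each above 0 in 3 of 4 axonal control libraries, where they stood at 29.8 to 152 FPKM, and were listed at 0 in all axonal knockdown libraries. In contrast, mt-Tp was still seen in knockdown replicates 1 and 2, at 27.2 and 65.3 FPKM, next to 34.4, 75.4, 30.6 and 78.1 FPKM in the control libraries. Its groups overlapped. Each of these values rests on few fragments: 1 implied fragment on a tRNA of median length was worth 32.4 to 41.3 FPKM in axonal control and 29.5 to 227 FPKM in axonal knockdown libraries, and all tRNAs together had 10.99 to 47.1 implied fragments per axonal control library.

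In the somatodendritic compartment 28 of the 37 genes were tested, and 4 were lower in knockdown libraries, the tRNAs mt-Tv and mt-Ts1 and the mRNAs mt-Co2 and mt-Atp6, where 0.747% of all genes were lower. mt-Ts1, a serine tRNA of the minus strand, stood at 26.9, 32.9, 10.1 and 26.5 FPKM in control libraries and was listed at 0 in the 6 knockdown libraries. It too passed the filter only through the control libraries, so that its call restates its detection in the control libraries. By the interval its control values rest on 0.25 to 0.5 implied fragments each, and a like level was below 1 implied fragment in the somatodendritic knockdown libraries as well. These counts are uncertain: in control replicate 4 mt-Tv, also of 69 bases, had the same 26.5 FPKM on 1 implied fragment. mt-Tv stood at 350, 164, 100.5 and 26.5 FPKM in control libraries and was above 0 only in knockdown replicate 2, at 36.1 FPKM. Its log2 difference was -6.09 ± 1.02 (SE) with an adjusted p of 0.013. The call of mt-Tv ended without control replicate 1, 2 or 3 and with the replicate number as a block (limma, adjusted p = 0.107), and it held without control replicate 4. Control replicate 4 lay below the knockdown value, so that the groups of mt-Tv overlapped in this compartment. Relative to the MT sum, the same 2 tRNAs were lower, against 0.550% of all genes, and mt-Tv was not called there without control replicate 1 or 2.

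In somatodendritic control libraries mt-Tg stood at 54.6, 0, 102 and 26.9 FPKM and mt-Th at 55.4, 0, 0 and 0 FPKM. Neither passed the test there (adjusted p = 0.223 and 0.57), and the only knockdown value of either was 29.2 FPKM of mt-Tg in replicate 4. In all, 11 tRNAs were above 0 in at least 1 somatodendritic control library and 6 in at least 1 somatodendritic knockdown library. Among them were mt-Tm (methionine), above 0 in control replicates 2 and 3 and in knockdown replicate 3, and mt-Tw (tryptophan), above 0 in control replicates 2 and 4 and in knockdown replicates 1 and 5. mt-Tn (asparagine) and mt-Te (glutamate) went the other way and were above 0 in knockdown replicate 2 alone, at 17.5 and 36.1 FPKM. No mitochondrial tRNA other than mt-Tv and mt-Ts1 was above 0 in all 4 somatodendritic control libraries. In axons mt-Ts1 stood at 16.7, 0, 14.9 and 0 FPKM in control libraries and at 0 in all knockdown libraries.

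Fewer nuclear genes of like length were also above 0 in knockdown libraries. Of 1171 nuclear genes of 50 to 80 bases, 22 to 49 were above 0 in somatodendritic control and 1 to 17 in somatodendritic knockdown libraries, and 3 to 17 in axonal control against 0 to 4 in axonal knockdown libraries, where the groups overlapped. Of 3907 nuclear genes of 81 to 140 bases, 43 to 64 were above 0 in axonal control against 5 to 23 in axonal knockdown libraries. The median log2 difference of the nuclear genes of 50 to 80 bases tested was -1.37 in the somatodendritic compartment and -1.34 in axons. It was -0.09 and -0.14 for nuclear genes over 2000 bases. In the fit on values corrected for this trend over exonic length, mt-Tv was lower in both compartments. It had been above 0 in only 1 knockdown library of each, so that its calls rest almost wholly on detection in control libraries. The other tRNAs called in that fit, mt-Tf, mt-Ta, mt-Tg and mt-Th in axons and mt-Ts1 in the somatodendritic compartment, were at 0 in every knockdown library before the correction. Their calls bear on nothing beyond their detection in control libraries. The part of the trend in the number of tRNAs detected was not tested.

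**Figure D3:**
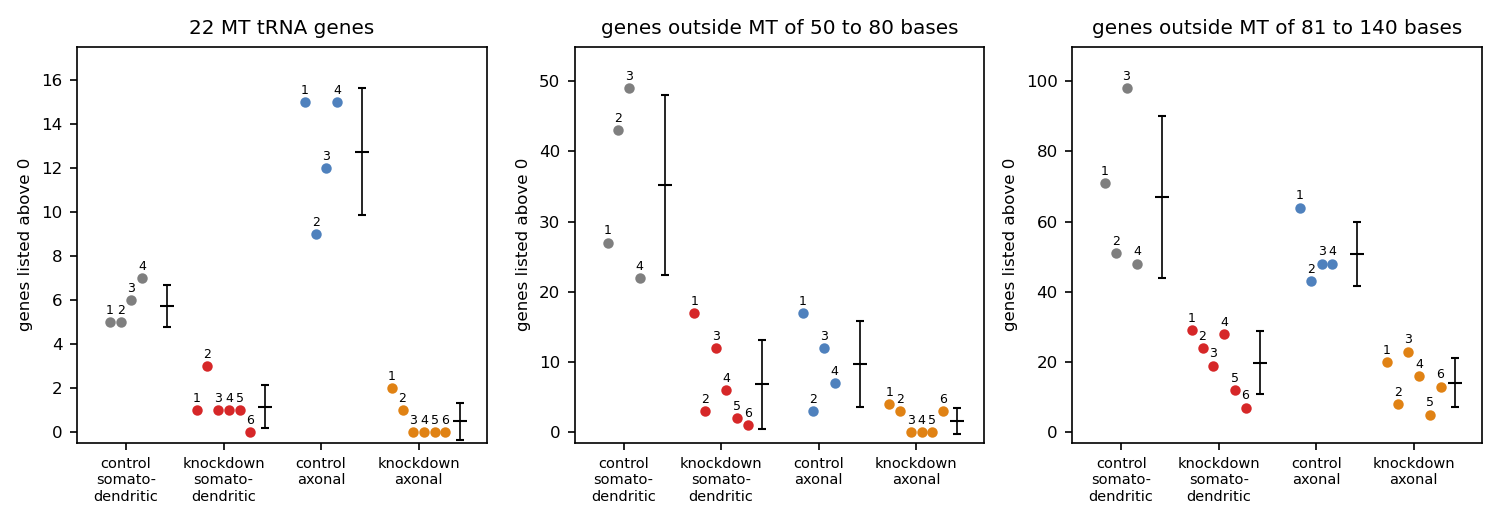
Numbers of genes above 0 FPKM per library (y axis) by compartment and condition, for the 22 mitochondrial tRNAs (left) and for nuclear genes of 50 to 80 bases (middle) and of 81 to 140 bases (right). Points are libraries, numbered by replicate, with the mean and SD beside them; the means of all counts are lower in knockdown libraries, whereas axonal control libraries have more tRNAs than somatodendritic ones (9 to 15 against 5 to 7) and fewer nuclear genes of 50 to 80 bases (3 to 17 against 22 to 49).

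Axonal and somatodendritic knockdown effects were also compared. In a fit of all 20 libraries, 2 of the 34 genes tested for a difference of the knockdown effect were called, mt-Tf with an adjusted p of 6.34e-07 and mt-Ta with an adjusted p of 6.61e-06 (limma). Over all genes 0.0710% had a lower effect in axons. Neither tRNA had a value above 0 in any somatodendritic library, so that no knockdown effect could be measured there, and both calls restate the detection in the 4 axonal control libraries. Relative to the MT sum the same 2 tRNAs were called, against 0.0552% of all genes, and with the replicate number as a block 0 of the 34 were called on this scale. Without axonal control replicate 2 or without replicate 3, 4 tRNAs were called on either scale, mt-Tf and mt-Ta among them. For mt-Tg and mt-Th the difference between compartments did not pass the test (adjusted p = 0.837 and 0.278), nor did it for mt-Tv (0.937) and mt-Ts1 (0.885).

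The 2 rRNAs were the most abundant members in every library. mt-Rnr1, the small-subunit rRNA, stood at 35506, 39322, 32907 and 33271 FPKM in the somatodendritic compartment of controls, and in that of the knockdown at 25560 to 36380 FPKM (median 32010). mt-Rnr2, the large-subunit rRNA, stood at 21758, 25122, 22001 and 20910 FPKM in control and at 19755 to 28262 FPKM (median 23630) in knockdown libraries. The deposited values of both rRNAs overlapped between the groups, while the scaled values of mt-Rnr1 were lower in every knockdown than in every control library. Neither rRNA passed the test (log2 difference -0.42 ± 0.13 SE, adjusted p = 0.139, and -0.16 ± 0.12 SE, adjusted p = 0.599). In axons mt-Rnr1 stood at 29765, 22647, 30720 and 110195 FPKM in control libraries and at 36614, 142063, 21713, 112628, 156527 and 121504 FPKM in knockdown libraries. mt-Rnr2 stood at 23748, 16596, 26427 and 66604 FPKM and at 22240, 92512, 13786, 84261, 106918 and 82550 FPKM. The high and the low axonal libraries are the same as for the MT share, and neither rRNA passed the test there (adjusted p = 0.867 and 0.914).

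The ratio of mt-Rnr1 to mt-Rnr2 within a library does not depend on the total. It was 1.63, 1.57, 1.496 and 1.59 in somatodendritic control libraries against 1.29 to 1.41 (median 1.30) in somatodendritic knockdown libraries, with means of 1.57 ± 0.0572 (SD, n = 4) and 1.32 ± 0.0454 (SD, n = 6). Every knockdown library lay below every control library. In axons the ratio was 1.25, 1.36, 1.16 and 1.65 in control and 1.34 to 1.65 (median 1.504) in knockdown libraries, and the groups overlapped. The difference between the compartments was not tested.

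The mRNAs lay below the rRNAs. mt-Co1, which encodes the catalytic subunit of cytochrome c oxidase, stood at 3267, 3832, 3519 and 3446 FPKM in somatodendritic control and at 2970 to 4808 FPKM (median 3456) in somatodendritic knockdown libraries. mt-Cytb, the cytochrome b of complex III, stood at 2582, 3120, 2800 and 2731 FPKM in control and at 2038 to 4071 FPKM (median 2840) in knockdown libraries. mt-Nd1, a subunit of complex I, stood at 1965, 2431, 2176 and 2279 FPKM in control and at 1794 to 3582 FPKM (median 2437) in knockdown libraries. The groups of these 3 mRNAs overlapped. mt-Nd6, the complex I subunit of the minus strand, was lower per length, at 308, 419, 388 and 272 FPKM in control and 219 to 477 FPKM (median 230) in knockdown libraries. At the low end, mt-Nd4l, a small subunit of complex I, stood at 119, 122, 133 and 114 FPKM in control and at 32.4 to 97.6 FPKM in knockdown libraries, without overlap of the deposited values (log2 difference -1.27 ± 0.28 SE, adjusted p = 0.0526). All mRNAs but mt-Atp8 were above 0 in every library, and mt-Atp8 was listed at 0 only in somatodendritic knockdown replicate 6. All 13 mRNAs had a negative log2 difference in the somatodendritic compartment, from -2.76 for mt-Atp8 to -0.01 for mt-Nd5, where the median of all genes tested was -0.14, but 4 of them were positive on FPKM as deposited, 5 with the sum outside chromosome MT as the scale, 6 relative to the MT sum and 8 after correction for length. Of the 13, mt-Co2 and mt-Atp6 passed the test.

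mt-Atp6, a membrane subunit of the ATP synthase, stood at 1628, 1725, 1679 and 1844 FPKM in somatodendritic control libraries and at 989 to 1621 FPKM (median 1132) in knockdown libraries. Its log2 difference was -0.74 ± 0.13 (SE, limma, adjusted p = 0.0202), and every knockdown library lay below every control library. mt-Co2, another subunit of cytochrome c oxidase, stood at 1794, 2203, 2202 and 2121 FPKM in control and at 1209 to 1980 FPKM (median 1442) in knockdown libraries. Its log2 difference was -0.66 ± 0.14 (SE, adjusted p = 0.0422). The deposited values of mt-Co2 overlapped, while its scaled values did not. The call of mt-Co2 ended without knockdown replicate 3, 4, 5 or 6. Both calls ended on FPKM as deposited, with the sum outside chromosome MT as the scale, with the correction for length, with the replicate block (adjusted p = 0.152 for mt-Atp6 and 0.188 for mt-Co2) and without any 1 of the 4 control libraries: over all settings the adjusted p ranged from 0.00478 to 0.521 for mt-Atp6 and from 0.0262 to 0.65 for mt-Co2. Relative to the MT sum neither was called (adjusted p = 0.0609 and 0.161).

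In axons no mRNA was called between control and knockdown libraries by limma, and mt-Atp8 alone had an unadjusted p under 0.05. The log2 differences ran from -1.40 for mt-Atp8 to 1.08 for mt-Nd5, with adjusted p-values of 0.563 or more. Of the 13, 10 were positive and 3 negative, whereas 3 were positive and 10 negative with the replicate number as a block, so that no direction is given for the class. mt-Co1 stood at 3772, 2912, 3932 and 11128 FPKM in control and at 3642, 14372, 3030, 14670, 22286 and 15666 FPKM in knockdown libraries, so that the high and low libraries were again those of the MT share. mt-Cytb stood at 3197, 1960, 3109 and 8123 FPKM in control and at 1693 to 17013 FPKM (median 11121) in knockdown libraries, and mt-Nd1 at 1902, 1522, 2077 and 5671 FPKM and at 1538 to 10697 FPKM (median 7160). mt-Nd6 stood at 506, 258, 459 and 791 FPKM in control and at 226 to 1213 FPKM (median 965) in knockdown libraries. None of these groups was free of overlap. mt-Nd5, a further complex I subunit, stood at 1208, 802, 1148 and 3522 FPKM in axonal control libraries and at 1877, 7574, 1250, 5640, 9192 and 6685 FPKM in axonal knockdown libraries. mt-Atp6 stood at 1824, 1260, 2183 and 4428 FPKM in control and at 1115, 4656, 736, 4699, 6001 and 4950 FPKM in knockdown libraries. mt-Co2 stood at 2944, 2143, 3328 and 5948 FPKM in control and at 1643 to 10840 FPKM (median 7569) in knockdown libraries. The groups overlapped for all 3 genes.

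The composition of the mRNA pool was examined apart from its total. When each mRNA was expressed as a percentage of the 13-mRNA sum of its library, 2 shares were higher in every somatodendritic knockdown library than in every control library (mt-Nd1 and mt-Nd5) and 5 were lower (mt-Co2, mt-Atp8, mt-Atp6, mt-Nd4l and mt-Nd4). On the scale of the mRNA sum, 3.40% of all genes were higher without overlap and 1.30% lower. In axons 2 shares were higher without overlap (mt-Nd3 and mt-Nd5) and 4 lower (mt-Atp8, mt-Atp6, mt-Nd4l and mt-Nd4), where 0.0884% of all genes were higher and 0.524% lower. After the correction over exonic length, 1 share was higher without overlap (mt-Nd1) and 4 were lower (mt-Co2, mt-Atp6, mt-Nd4l and mt-Nd4) in the somatodendritic compartment, and 1 was higher (mt-Nd5) and 2 were lower (mt-Atp6 and mt-Nd4l) in axons. The shares add up to 100 within a library, so that higher shares of some and lower shares of others are tied to each other. Without the correction, mt-Nd5 was higher and mt-Atp8, mt-Atp6, mt-Nd4l and mt-Nd4 were lower in both compartments. With it, mt-Atp6 and mt-Nd4l remained lower without overlap in both.

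mt-Nd5 made up 7.14%, 6.98%, 7.12% and 6.47% of the mRNA sum in somatodendritic control libraries against 7.95% to 9.23% (median 8.70%) in knockdown libraries. In axons it made up 5.43%, 5.14%, 4.90% and 6.37% in control and 8.37% to 9.97% (median 8.93%) in knockdown libraries. The control and knockdown means were 6.93% ± 0.314 and 8.61% ± 0.542 in the somatodendritic compartment and 5.46% ± 0.645 and 9.05% ± 0.643 in axons (SD, n = 4 and n = 6), without overlap of the groups. After the correction for length the somatodendritic groups overlapped, at 6.51% to 7.42% in control and 7.26% to 9.01% in knockdown libraries. mt-Nd1, another complex I subunit, went from 11.2% ± 0.294 to 13.1% ± 0.726 in the somatodendritic compartment. mt-Nd3 went from 1.34% ± 0.208 to 1.76% ± 0.128 in axons. Not all complex I subunits had higher shares, since mt-Nd4 and mt-Nd4l had lower shares and mt-Nd6, the only mRNA of the minus strand, overlapped between control and knockdown in both compartments, at 1.75% ± 0.266 and 1.54% ± 0.255 in the somatodendritic compartment and 1.83% ± 0.368 and 1.49% ± 0.322 in axons.

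The 4 mRNAs with lower shares in both compartments form the pairs mt-Atp8 with mt-Atp6 and mt-Nd4l with mt-Nd4, whose genes overlap on the plus strand. mt-Atp6 made up 9.19%, 8.01%, 8.40% and 9.37% of the mRNA sum in somatodendritic control libraries against 6.15% to 7.27% (median 6.37%) in knockdown libraries, and 8.20%, 8.08%, 9.32% and 8.01% in axonal control against 5.30% to 6.97% (median 5.93%) in axonal knockdown libraries. mt-Atp8, the other mitochondrially encoded subunit of the ATP synthase, went from 1.13% ± 0.157 to 0.402% ± 0.290 in the somatodendritic compartment and from 1.56% ± 0.662 to 0.454% ± 0.184 in axons. It rested on 0 to 11.03 implied fragments per somatodendritic knockdown library, against 16.8 to 30.1 in control libraries, and its groups overlapped in both compartments after the correction for length. Together these ATP synthase mRNAs took 9.87% ± 0.800 and 6.93% ± 0.670 of the mRNA sum in somatodendritic control and knockdown libraries, and 9.96% ± 1.17 and 6.48% ± 0.599 in the axonal ones, with no overlap. mt-Nd4l went from 0.621% ± 0.0550 to 0.328% ± 0.0927 in the somatodendritic compartment and from 0.790% ± 0.281 to 0.250% ± 0.0484 in axons, and it rested on 0.489 to 10.1 implied fragments per somatodendritic knockdown library. Its partner mt-Nd4 went from 7.17% ± 0.263 to 5.72% ± 0.537 and from 8.08% ± 0.605 to 6.46% ± 0.599. The axonal groups of mt-Nd4 overlapped after the correction, at 7.05% to 8.34% in control and 4.91% to 7.195% in knockdown libraries.

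**Figure D4:**
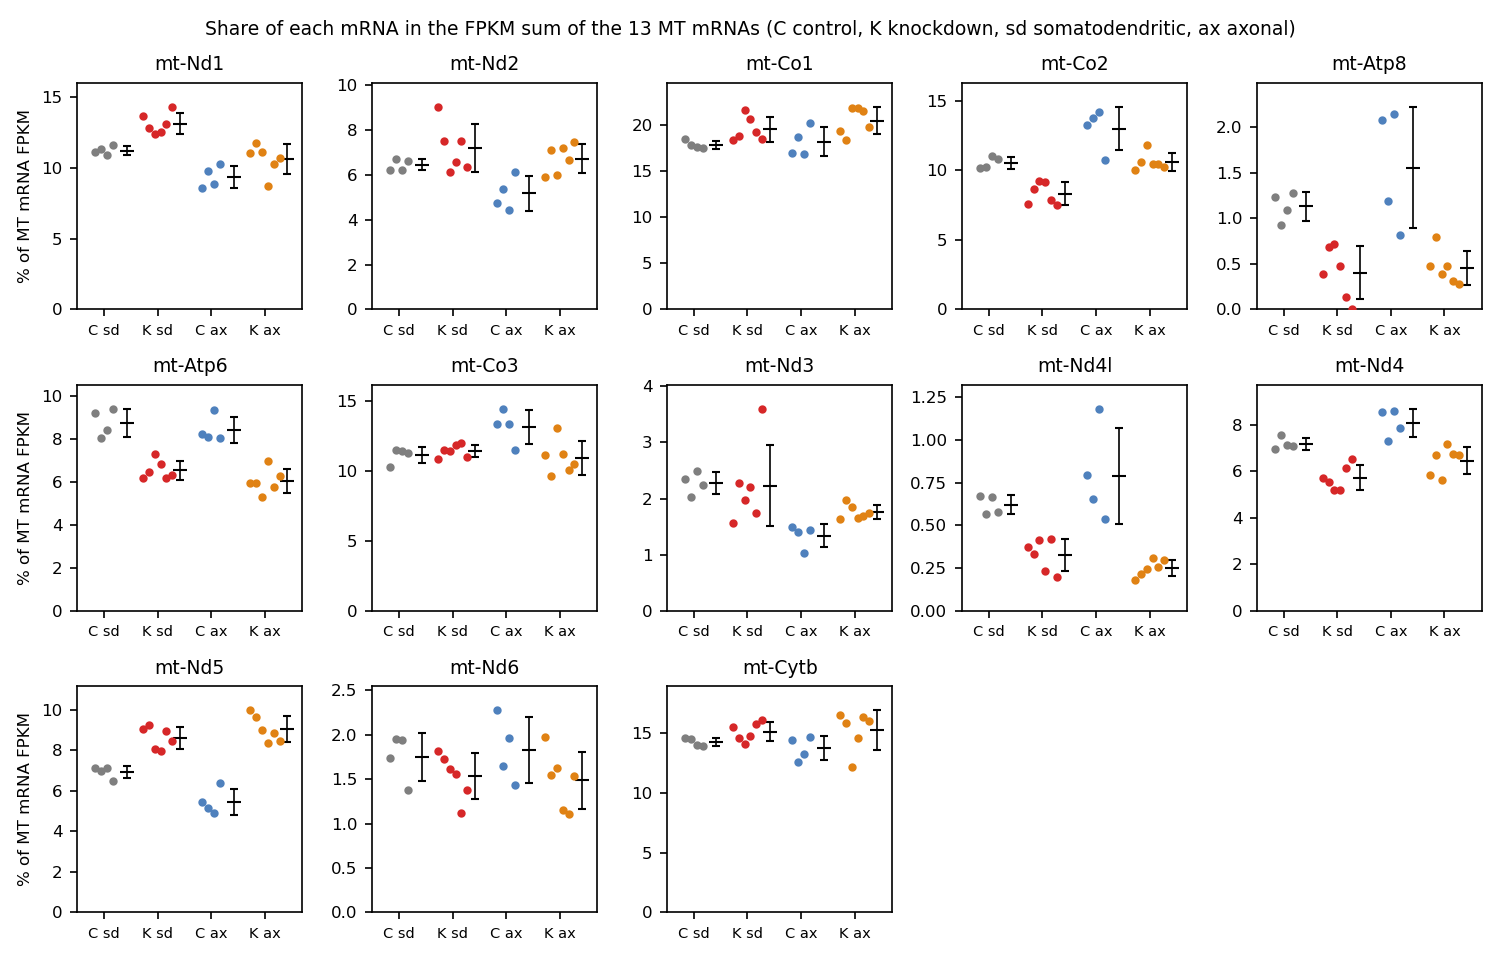
Percentage of the 13-mRNA FPKM sum taken by each mitochondrial mRNA (y axis) in control and knockdown libraries of each compartment; points are libraries, with the mean and SD beside them. mt-Nd5 sits higher and mt-Atp8, mt-Atp6, mt-Nd4l and mt-Nd4 sit lower in every knockdown library than in every control library of the same compartment.

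Each of these pairs is carried by 1 bicistronic message in which the reading frames overlap. The junctions are printed from the GENCODE M21 transcripts of GRCm38 on the plus strand, with the bases shared by both genes in capitals: 43 bases, MT:7927-7969, for mt-Atp8 and mt-Atp6 within MT:7907-7989, and 7 bases, MT:10167-10173, for mt-Nd4l and mt-Nd4 within MT:10147-10193.
mt-Atp8/mt-Atp6: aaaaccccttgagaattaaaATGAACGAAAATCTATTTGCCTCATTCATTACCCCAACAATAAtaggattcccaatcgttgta
mt-Nd4l/mt-Nd4: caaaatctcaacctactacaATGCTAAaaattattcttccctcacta
Fragments that cross such a junction belong to both genes, and how they were assigned is not given in the sources used here. In somatodendritic control replicate 1, mt-Atp8 and mt-Nd4l stood at 218 and 119 FPKM, against 1628 and 1230 FPKM for mt-Atp6 and mt-Nd4. FPKM of short and long genes are therefore not a safe measure of their relative levels. mt-Nd5 ends in a 14-base overlap with mt-Nd6 on the other strand (MT:13552-13565). Nuclear copies with at least 99% identity over at least 50% of the gene exist for mt-Co2, mt-Atp6, mt-Co3, mt-Nd3, mt-Nd4l and mt-Nd4. Of these 6 mRNAs, 4 had lower shares in the somatodendritic compartment and 3 in axons, against 1 and 1 of the other 7. Higher shares were seen for 0 and 1 of the 6, against 2 and 1 of the other 7. Among these near-identical copies only that of mt-Nd4l has deposited values. The annotated nuclear copy Gm10222 stood at 0.842 to 1.07 times the FPKM of mt-Nd4l (median 1), so that the level of mt-Nd4l itself is uncertain. By length, mt-Nd5 is the longest mRNA at 1824 bases, mt-Nd4 has 1378, mt-Nd3 has 348, and mt-Nd4l and mt-Atp8 are the shortest at 297 and 204 bases. After the correction for length the axonal groups of mt-Nd3 and mt-Nd4 overlapped, while mt-Nd4 stayed lower in the somatodendritic compartment. The part of length and of the copies in the shares was not tested.

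The ratio of mt-Nd5 to mt-Atp6 sums up the shift within a library. It was 0.777, 0.871, 0.848 and 0.690 in somatodendritic control libraries against 1.11 to 1.46 (median 1.39) in knockdown libraries. In axons it was 0.662, 0.636, 0.526 and 0.795 in control and 1.20 to 1.70 (median 1.58) in knockdown libraries. The means were 0.797 ± 0.0814 in control and 1.33 ± 0.156 in knockdown for the somatodendritic compartment and 0.655 ± 0.111 and 1.52 ± 0.200 for axons (SD, n = 4 and n = 6), and no control library reached a knockdown library. The pair was chosen after the shares had been seen, and the ratio is given as a description.

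**Figure D5:**
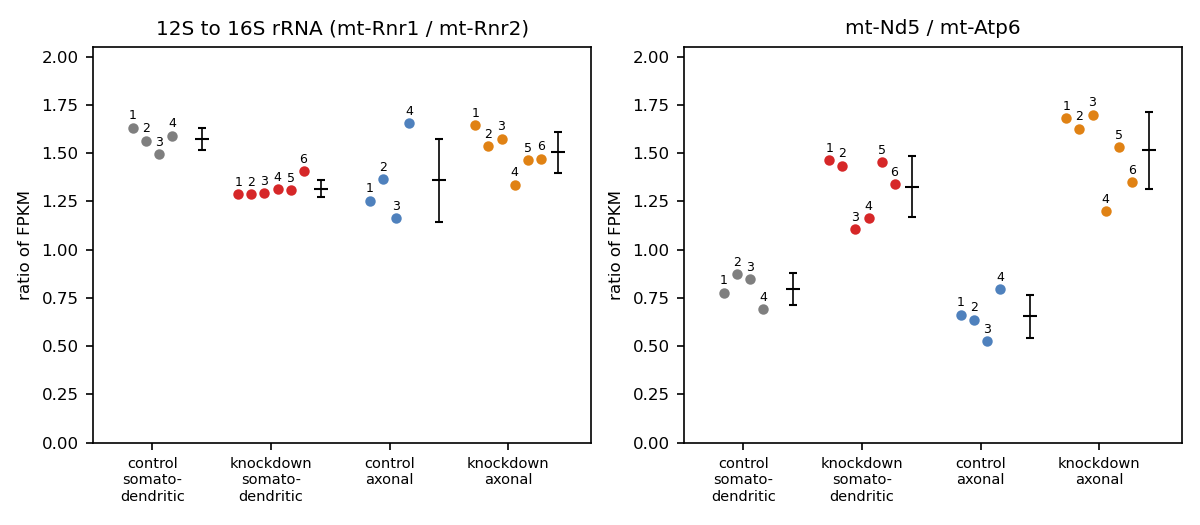
Ratios within each library, by compartment and condition: mt-Rnr1 to mt-Rnr2, and mt-Nd5 to mt-Atp6 (y axes, ratio of FPKM); points are libraries, numbered by replicate, with the mean and SD beside them. The rRNA ratio is lower in every somatodendritic knockdown library, at 1.29 to 1.41 against 1.496 to 1.63, and the mRNA ratio is higher in every knockdown library of both compartments.

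By respiratory complex, the complex I mRNAs took 31.0% to 34.1% of the mRNA sum in axonal control against 34.6% to 38.9% in axonal knockdown libraries, without overlap, whereas the somatodendritic groups overlapped at 36.0% to 37.1% and 35.7% to 41.2%. The shares of complex III (mt-Cytb) and of complex IV (mt-Co1, mt-Co2 and mt-Co3) overlapped between control and knockdown in both compartments. The limma fit relative to the MT sum called no single mRNA or rRNA in the knockdown comparisons. These genes make up nearly all of that sum, which limits the differences that they can have on it.

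The compartments were next compared within each condition. In control motoneurons 35 of the 37 genes were tested, and 12 were higher in axonal than in somatodendritic libraries, where 3.90% of all genes were higher. They were the tRNAs mt-Tf, mt-Ti, mt-Ta, mt-Tn, mt-Tk, mt-Th, mt-Te and mt-Tp and the mRNAs mt-Co2, mt-Atp8, mt-Co3 and mt-Nd4l. Of these tRNAs, mt-Tf, mt-Ti, mt-Ta, mt-Tn, mt-Tk and mt-Te were listed at 0 in all 4 somatodendritic control libraries. These 6 passed the filter only through the axonal libraries, and their calls restate that detection. Without the filter on low values 3 genes were called, mt-Tf, mt-Ta and mt-Tp. mt-Th and mt-Tp were above 0 in 1 of these libraries, at 55.4 and 27.3 FPKM. The mRNAs differed by 1.22 ± 0.28 (SE, mt-Co2, adjusted p = 0.0254), 1.28 ± 0.30 (mt-Atp8, 0.0302), 1.16 ± 0.29 (mt-Co3, 0.0351) and 1.20 ± 0.32 (mt-Nd4l, 0.0456) on the log2 scale. All 13 mRNAs had a positive log2 difference, from 0.15 for mt-Nd3 to 1.28 for mt-Atp8, though only 12 did on FPKM as deposited or with the sum outside chromosome MT as the scale and 9 relative to the MT sum. The rRNAs did not pass the test (adjusted p = 0.367 and 0.166). The 12 calls fell to 3 to 7 when any 1 of somatodendritic control replicates 1 to 4 or of axonal control replicates 1, 3 and 4 was left out. Scaled by the MT sum, 8 genes were higher in axons, all tRNAs, against 0.774% of all genes, and 2 to 5 were called without any 1 of the same libraries.

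Within the mRNA pool of control motoneurons, the share of mt-Co3 was higher in every axonal than in every somatodendritic library, at 13.1% ± 1.20 against 11.1% ± 0.559 (SD, n = 4 each), where 0.984% of all genes were higher. The shares of mt-Nd1, mt-Nd2, mt-Nd3 and mt-Nd5 were lower, where 22.6% of all genes were lower on this scale. mt-Nd3 went from 2.28% ± 0.196 in the somatodendritic to 1.34% ± 0.208 in the axonal compartment. mt-Nd5 went from 6.93% ± 0.314 to 5.46% ± 0.645.

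In knockdown motoneurons none of the 22 genes tested was called between the compartments by limma, while 15 had an unadjusted p under 0.05, namely the 13 mRNAs and the 2 rRNAs. Over all genes 7.83% were higher in axons at an unadjusted p under 0.05 and 0.841% were called higher. The log2 differences were 1.25 to 2.67 for the mRNAs, of which 7 were positive relative to the MT sum, and 1.62 ± 0.50 and 1.43 ± 0.52 (SE) for mt-Rnr1 and mt-Rnr2, with adjusted p-values from 0.0572 for mt-Co2 to 0.298 for mt-Nd4l. The spread between the axonal libraries bears on this result: without axonal knockdown replicate 3, a library of the low level, 13 genes were called higher, and without replicate 1, the other such library, 1 was called (mt-Co2). With the MT sum as the scale no gene was called, against 0.0891% of all genes called higher, and 2 of the 22 had an unadjusted p under 0.05, against 30.7% of all genes. That scale is the sum of the members themselves, so that few calls among the abundant members are built in. The median log2 difference of all genes tested on it was -1.07. As a share of the mRNA sum, mt-Co2 was higher in every axonal library, at 10.6% ± 0.643 against 8.33% ± 0.800, and mt-Nd1 lower, where 0.0479% of all genes were higher and 1.47% lower.

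Markers of other cells and of nuclear RNA were set beside the compartments. The summed level of 5 nuclear noncoding RNAs was 445 to 764 FPKM in axonal control libraries, 1159 to 2329 in axonal knockdown libraries, and 789 to 1165 and 680 to 1383 in the somatodendritic ones, and none of the 5 was at 0 in every library. Malat1 alone did not overlap between the axonal groups, at 312 to 489 FPKM in control and 1041 to 1800 in knockdown libraries, and the other 4 overlapped. The summed fibroblast markers stood at 11.9 to 47.9 FPKM in axonal control libraries, 11.4 to 81.1 in axonal knockdown libraries, and 1.43 to 11.9 and 0 to 13.9 in the somatodendritic ones. The astrocyte or glial progenitor markers stood at 63.5 to 429 and 16.7 to 526.2 FPKM in axonal control and knockdown libraries, against 257 to 330 and 178 to 320 in the somatodendritic ones. Microglia markers reached at most 21.3 FPKM and Schwann or oligodendrocyte lineage markers at most 48.6 FPKM in any library. Their part in the results for the mitochondrial transcripts was not tested.

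Nuclear genes that act on mitochondrial RNA were examined as 2 lists chosen by function. Of 47 genes for mitochondrial transcription and RNA maturation, such as the RNA polymerase, the enzymes that cut out the tRNAs and those that modify them, 46 were tested in the somatodendritic and 44 in the axonal knockdown comparison. None was called by limma in either comparison, and 4 and 3 had an unadjusted p under 0.05, where 13.8% and 8.71% of all genes did. The medians of the list were -0.16 and -0.39 on the log2 scale, beside -0.14 and -0.18 for all genes tested. None of the list was called between the compartments either, and 3 of 44 in control and 4 of 46 in knockdown libraries had an unadjusted p under 0.05, where 22.8% and 16.5% of all genes did.

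Of 22 genes for the charging of mitochondrial tRNAs, 22 and 20 were tested in the somatodendritic and axonal knockdown comparison, and 1, Lars2, was lower in each, where 0.747% and 0.381% of all genes were lower. The medians were -0.20 and -0.29 on the log2 scale. Lars2, the mitochondrial leucyl-tRNA synthetase, stood at 2617 to 3159 FPKM in somatodendritic control and 2034 to 2402 in somatodendritic knockdown libraries, and at 4299 to 8122 in axonal control against 978 to 1873 in axonal knockdown libraries. Its log2 difference was -0.56 ± 0.10 (SE, limma, adjusted p = 0.0207) in the somatodendritic compartment and -2.79 ± 0.29 (SE, adjusted p = 6.77e-05) in axons, and the groups did not overlap in either. The axonal and somatodendritic effects differed by -2.25 ± 0.27 (SE, adjusted p = 6.86e-05). In axonal control replicates 1 to 3 Lars2 stood above mt-Co1, at 8066, 6925 and 8122 against 3772, 2912 and 3932 FPKM. In replicate 4 it stood below, at 4299 against 11128 FPKM. Whether these values come from Lars2 mRNA alone was not tested. Between the compartments of control motoneurons, where 3.90% of all genes were higher and 2.89% lower in axons, Lars2 was higher, with a log2 difference of 1.79 (adjusted p = 0.00203), and Gatc, a subunit of the enzyme that completes the charging of the glutamine tRNA, was lower, with -1.93 (adjusted p = 0.00884). The tRNAs for leucine, which Lars2 charges, were rarely detected: mt-Tl1 was above 0 in somatodendritic control replicate 4 alone and mt-Tl2 in somatodendritic control replicates 1 and 2 alone.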

How the data were processed

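RNA-seq was taken from 20 libraries of mouse motoneurons. Total RNA was extracted from each compartment and amplified by PCR as cDNA of the whole transcriptome. The authors deposited FPKM values per gene for each library. The submitters' processing notes name Cufflinks 2.2.1, FastQC 0.10.1 and GRCm38. The aligner and the treatment of fragments shared by several genes are not given in the sources used here. The unit carries no read totals, and the implied fragments were read from the deposited 95% interval, taken as FPKM + 2 SD of a count, so that they cover counting error only and PCR copies are not independent molecules.

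From these values, shares of the FPKM sum, of the sum over chromosome MT (MT sum) and of the 13-mRNA sum were computed as deposited. A value at or below 0.001 FPKM counted as listed at 0. For the tests, values were scaled per library (median of ratios, or MT sum) and set to log2(FPKM + 1). Genes whose mean was 1 FPKM or more were fitted with limma 3.58.1 in R 4.3.3 (lmFit, eBayes with trend), and p-values were adjusted over all of them by the Benjamini-Hochberg method. Fold changes are on that scale and understate changes of low genes. The fits were also run on simulated data as a check of the code, whose outcome is not given here. Sums, shares and ratios were compared by overlap of the libraries alone. For both rRNAs, mt-Co1, mt-Cytb, mt-Atp6, mt-Nd1, mt-Nd6 and the genes called in a knockdown comparison on the median of ratios, values are given for every control library and for the knockdown libraries singly or as lowest, median and highest. Others were named after their values were seen. The members and lists were chosen with earlier results of these data known. Sequences and coordinates of all 37 genes came from GENCODE M21 on GRCm38, and copies were sought with blastn 2.17.0. Of 47 and 22 listed nuclear genes all matched the files, 8 and 1 by an older symbol. Alternatives were FPKM as deposited, the FPKM sum outside chromosome MT or the mRNA sum as the scale, pseudocounts of 0.1 and 5, no filter, a replicate block, shares without rRNAs and leaving out each library. A correction over exonic length (lowess, span 0.3) was chosen after seeing the data. Tables were handled with Python 3.11.15 and pandas 2.3.3.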

Additional observations from a re-analysis of the deposited data

Results flagged for a closer look

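In 15 of 105 groups of values examined, 1 library stood apart from the others of its group by Dixon's criterion. Axonal control replicate 4 accounted for 6 of them: its rRNA share of the library was 24.96%, its ratio of rRNA to mRNA was 3.20, and mt-Rnr1 stood at 110195 FPKM, mt-Co1 at 11128 FPKM, mt-Nd1 at 5671 FPKM and mt-Th at 156 FPKM. Somatodendritic control replicate 2 stood apart with an MT share of 13.6%. Somatodendritic knockdown replicate 6 stood apart with a ratio of mt-Rnr1 to mt-Rnr2 of 1.41 and with an mt-Nd3 share of the mRNA sum of 3.597%. mt-Atp6 made up 9.32% of the mRNA sum in axonal control replicate 3 and mt-Co2 11.8% in axonal knockdown replicate 3. Single tRNA values above 0 in groups otherwise at 0 were mt-Tv at 36.1 FPKM in somatodendritic knockdown replicate 2 and at 26.4 FPKM in axonal knockdown replicate 1, mt-Tg at 29.2 FPKM in somatodendritic knockdown replicate 4 and mt-Th at 55.4 FPKM in somatodendritic control replicate 1. A group with a single value above 0 meets the criterion whatever that value is, and measures of the same library are not independent. The 15 are therefore not set against a chance rate.

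In the test of a difference between the axonal and the somatodendritic knockdown effect, mt-Tf (limma, adjusted p = 6.34e-07) and mt-Ta (adjusted p = 6.61e-06) passed the threshold. Both were above 0 in axonal control libraries alone and at 0 in all 10 somatodendritic libraries, and the calls restate that detection.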

How the results depend on the processing

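No called difference reversed its direction under any setting tried. Of the 37 genes of chromosome MT, the 4 called in somatodendritic knockdown libraries became 2 (mt-Tv and mt-Ts1) on FPKM as deposited, 2 with the sum outside chromosome MT as the scale and 2 after correction for length, and 1 to 5 when single libraries were left out. The 5 axonal calls ranged from 5 to 8 without single libraries. Relative to the MT sum, the 12 axonal calls became 5 without the filter, 5 after correction for length and 9 to 12 without single libraries, and the 2 somatodendritic calls ranged from 1 to 3. Between compartments of control motoneurons the 12 calls became 6 with a pseudocount of 0.1, 3 without the filter and 3 to 12 without single libraries, and relative to the MT sum the 8 calls became 3, 2 and 2 to 8. In knockdown motoneurons 1 gene (mt-Co2) was called with a pseudocount of 5 and 0 to 13 without single libraries, and relative to the MT sum 0 to 0. The differences of the knockdown effect ranged from 2 to 4 calls on both scales. Of the mRNA shares, those higher without overlap in knockdown libraries went from 2 to 1 in each compartment after the correction for length, and those lower from 5 to 4 in the somatodendritic compartment and from 4 to 2 in axons. The causes of these changes were not tested.

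With the replicate number as a block, 1 gene was called in the somatodendritic knockdown comparison (mt-Ts1; adjusted p = 0.107 for mt-Tv, 0.188 for mt-Co2 and 0.152 for mt-Atp6) and 1 relative to the MT sum, 5 in axons, and 0 for the difference between compartments relative to the MT sum. The axonal log2 differences of the 13 mRNAs, none of them called, went from 10 positive to 3 positive. Same-numbered libraries had correlations of their deviations between -0.037 and 0.07 over 14092 genes, so that the numbers were not shown to pair libraries.

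The MT share without the rRNAs was 3.53% in somatodendritic control, 3.45% in somatodendritic knockdown, 5.46% in axonal control and 11.98% in axonal knockdown libraries. Leaving out single libraries gave mean MT shares of 11.99% to 12.6%, 11.6% to 12.5%, 11.4% to 19.4% and 28.6% to 36.3% in the same order. Of the single genes' other settings, 201 kept their side of the threshold and 37 lost a call. With single libraries left out, 382 results for these genes, the class shares and the ratios stayed the same and 74 lost a call. Over all libraries 1 implied fragment on a tRNA of median length was worth 21.7 to 227 FPKM, and the part of depth in the tRNA values was not tested.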
